A study of Rattus norvegicus with 20 samples.

Results

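The genes described here control breakdown of the extracellular matrix: the tissue inhibitors of metalloproteinases Timp1, Timp2, Timp3 and Timp4, the matrix metalloproteinases Mmp2, Mmp9 and Mmp14, and the proteases Adamts1 and Adamts9. They are 9 of 14218 genes named on the array. Members were the 17 probe sets, of 31099 in the table, that the annotation assigns to exactly 1 of these symbols. The main value of a gene is its probe set with the highest mean over all arrays. The list was chosen by measured values, the ethanol against water differences in these same animals among them. Whether correlations between the members were known when it was made is not recorded, so the differences and the correlations among members are descriptions, and the counts of calls given with them support nothing about the list.

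The tissue was the central amygdala nucleus, a mostly GABAergic output region, and transcripts were read on arrays. All 20 animals were alcohol-preferring (P) rats, a line selected for high voluntary alcohol drinking, with 1 Affymetrix array for each animal. During adolescence 10 had access to ethanol at 15% and 30%, and 10 had water only. The sources used here do not give sex, age at sampling, amount drunk or time since the last drink. Values are log2 probe set summaries, so a difference of 1 is a doubling, and levels of different probe sets are not compared with each other.

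Matrix metalloproteinases are zinc proteases that are made as inactive precursors and cut collagens, laminins and cell surface proteins. The membrane-bound Mmp14 activates the precursor of Mmp2 with Timp2 as the adaptor, and Timp1 binds the precursor of Mmp9. ADAMTS proteases cut aggrecan, versican and related proteoglycans of the brain matrix, and Timp3, which is itself held in the matrix, is the family member that inhibits them. In the brain these genes are active in vessel walls, meninges and glia, and Mmp9 takes part in synaptic remodelling.

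Medians of the 20 arrays ran from 7.92 to 7.97, with correlations of 0.977 to 0.997 for pairs. The 3 arrays with the lowest mean correlation were those of ethanol animal 5, water animal 15 and water animal 18, which stayed in. In water animal 15 the control transcript Gapdh had the largest excess of 3' over 5' signal, 0.80 on the log2 scale against 0.18 to 0.49 in the other animals. Markers of the nucleus were present: Penk averaged 14.57 (99.8th percentile of all probe sets), Sst 13.06 and Nts 11.82. The other measured markers were lower, with Ppp1r1b at 10.88, Crh at 9.81 (percentile 75.3) and Prkcd at 9.70 (percentile 74.0). The mean of these markers, the central amygdala score, ran from 10.78 to 12.26 between animals. The accession order falls into 3 runs that each hold both groups in equal number, 4 per group in the first and second and 2 in the last, and no label names these runs a batch.

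None of the 7 members that could be tested passed the test of ethanol against water. The test was limma's moderated test with Benjamini-Hochberg adjustment over all 18625 probe sets with a mean above log2 7.14, the 40th percentile. It called 4 probe sets, 0.0215% of those tested, at an adjusted p under 0.05, and 0.0107% as lower with ethanol. The main probe sets of Mmp9 and Adamts1 lay under that filter and have levels only. At an unadjusted p under 0.05, Timp1 and Adamts9 were counted, 2 of 7 and both lower with ethanol, beside 12.8% of all tested probe sets (5.48% lower), a comparison from which nothing is read because the list was made with it known. The mean was lower with ethanol for 8 of the 9 genes and for 7 of the 7 tested, beside 42.2% of all tested probe sets. The median difference of the 7 was -0.34 and that of all tested probe sets 0.02. In no member were the groups free of overlap, as they were in 0.0268% of tested probe sets.

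**Figure D1:**
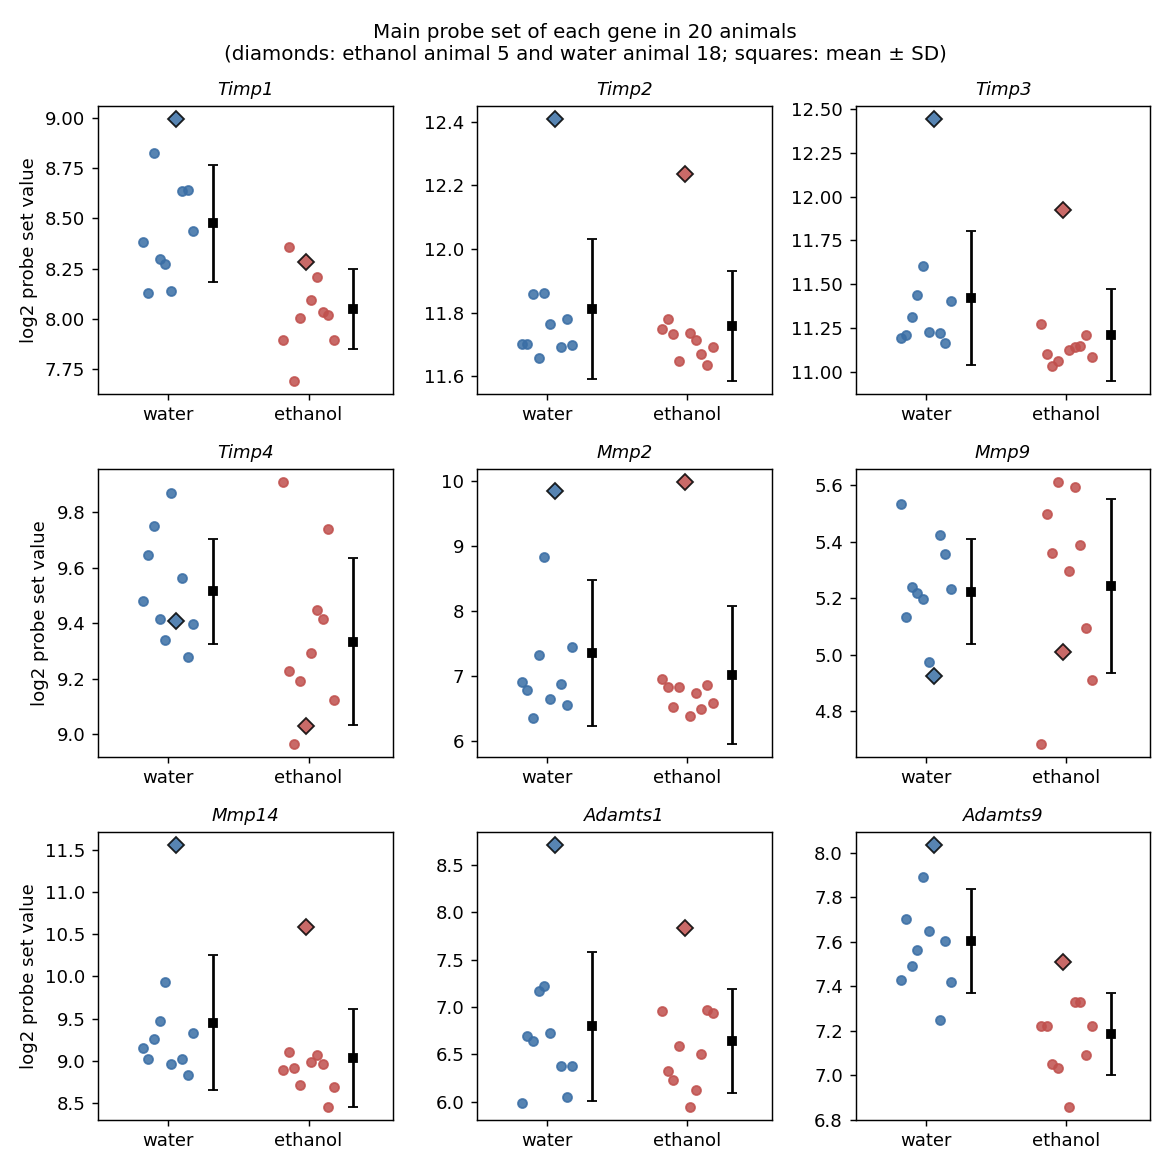
Log2 value of the main probe set of each of the 9 genes in 10 water and 10 ethanol animals, 1 point per animal, with mean ± SD beside each group and a separate vertical axis per gene. Ethanol animal 5 and water animal 18, drawn as diamonds, are the highest of their groups for Timp2, Timp3, Mmp2, Mmp14, Adamts1 and Adamts9. For Timp1, Timp3 and Adamts9, 7 ethanol animals lie below the lowest water animal.

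Timp1, a secreted inhibitor that is induced in injured and inflamed tissue, lies on chromosome X. Its log2 values in water animals ran from 8.13 to 8.99 with a median of 8.41, and in ethanol animals from 7.69 to 8.36 with a median of 8.03. The groups overlapped, but the water mean exceeded 10 of 10 ethanol animals, 7 of which were also below the lowest water animal, and 6 water animals lay above the highest ethanol animal. Such a placing of all 10 ethanol animals was seen in 1.57% of tested probe sets. The means were 8.05 ± 0.20 (SD, n = 10) with ethanol and 8.47 ± 0.29 (SD, n = 10) with water. The log2 difference was -0.43 (SE 0.10), or 1.34-fold higher in water animals, with a limma adjusted p of 0.178. In the 3 runs it was -0.42, -0.35 and -0.58. Over the alternative settings and with each animal left out it stayed between -0.46 and -0.37, with limma adjusted p-values of 0.0830 to 0.365. A single probe set stands for this gene.

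Timp2, the adaptor for Mmp2 activation, lies on chromosome 10, and its main probe set was nearly level across animals. Water values ran from 11.66 to 12.41 (median 11.73) and ethanol values from 11.63 to 12.23 (median 11.72), with water animal 18 and ethanol animal 5 at the top of their groups and the other 18 animals between 11.63 and 11.86. The difference was -0.05 (SE 0.085; limma adjusted p = 0.813), and it was 0.01 without water animal 18, 0.05 with the meningeal score as a covariate and 0.01 with the endothelial score. The other probe set of Timp2 had the opposite sign. It ran from 7.20 to 8.18 in water and from 7.95 to 8.27 in ethanol animals, with 10 of 10 ethanol animals above the water mean, a placing found in 3.01% of tested probe sets. Its difference was 0.23 (SE 0.095; limma adjusted p = 0.336). The lowest values were those of water animal 15 (7.20) and water animal 18 (7.503), and with those 2 animals and ethanol animal 5 left out the difference was 0.09 (SE 0.050; limma adjusted p = 0.559). The 2 probe sets correlated between animals at -0.16 over 20 animals and 0.50 over the 18 without ethanol animal 5 and water animal 18.

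Timp3, the matrix-bound inhibitor of ADAMTS proteases, lies on chromosome 7 and has 4 probe sets. The main one ran from 11.17 to 12.44 in water animals (median 11.27) and from 11.03 to 11.93 in ethanol animals (median 11.13). The top values belonged to water animal 18 and ethanol animal 5, and 7 ethanol animals lay below the lowest water animal. The difference was -0.21 (SE 0.14; limma adjusted p = 0.507), and -0.17, -0.29 and -0.14 in the 3 runs. It was -0.10 without water animal 18 alone, -0.29 without ethanol animal 5 alone, and -0.18 (SE 0.055; limma adjusted p = 0.323) without both. With the meningeal score as a covariate it was -0.02 (SE 0.053). The adjusted p ran from 0.323 to 0.927 over all settings. The other probe sets differed by -0.18, -0.08 and -0.15. In this order they followed the main one at r = 0.985, 0.804 and 0.658 over 20 animals. Without ethanol animal 5 and water animal 18 these were 0.88, 0.51 and 0.3. The probe set at -0.08 differed by -0.004 without both animals and by 0.12 in the last run.

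Timp4, the remaining inhibitor, lies on chromosome 4 and showed none of the high values of ethanol animal 5 and water animal 18. Water animals ran from 9.28 to 9.87 (median 9.45) and ethanol animals from 8.97 to 9.91 (median 9.26), and the groups overlapped over most of their range, although 5 ethanol animals lay below the lowest water animal. The difference was -0.18 (SE 0.11; limma adjusted p = 0.462), and its sign in the last run was opposite (-0.25, -0.25 and 0.09). With the myelin score of each animal as a covariate it was -0.06 (limma adjusted p = 0.848), and that score itself differed by -0.36, with 11 of 11 genes lower. Its values in ethanol animal 5 and water animal 18 were 9.03 and 9.41.

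Mmp2, a gelatinase that is secreted by fibroblasts and other connective tissue cells, lies on chromosome 19 and was the most uneven member. Most animals lay between 6.35 and 7.44, but ethanol animal 5 was at 9.98, water animal 18 at 9.85 and water animal 16 at 8.83. The medians were 6.78 in ethanol and 6.89 in water animals. The difference was -0.34 (SE 0.45; limma adjusted p = 0.766) and moved with single animals: -0.67 without ethanol animal 5, -0.06 without water animal 18 and -0.18 without water animal 16. It was -0.39 (SE 0.23; limma adjusted p = 0.555) without ethanol animal 5 and water animal 18 together. With the meningeal score as a covariate it was 0.26 (SE 0.22), with the endothelial score 0.03, and the adjusted p ran from 0.403 to 0.9749 over all settings. The mean of Mmp2 over all animals, 7.185, was just above the filter of 7.14, and over the 18 other animals it was 6.88, so the gene was tested through its high animals. Its other probe set, at 5.59, was under the filter and did not show them, with 5.70 in ethanol animal 5 and 5.54 in water animal 18.

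Mmp14, the membrane-bound activator of Mmp2, lies on chromosome 15. Its main probe set ran from 8.84 to 11.55 in water animals (median 9.21) and from 8.46 to 10.59 in ethanol animals (median 8.94), again with water animal 18 and ethanol animal 5 highest and water animal 16 next at 9.93. The difference was -0.41 (SE 0.29; limma adjusted p = 0.538), with the same sign in the 3 runs (-0.32, -0.46 and -0.51). It was -0.35 (SE 0.12; limma adjusted p = 0.361) without ethanol animal 5 and water animal 18, -0.18 without water animal 18 alone, -0.59 without ethanol animal 5 alone, and -0.03 (SE 0.14) with the meningeal score as a covariate. The adjusted p ran from 0.335 to 0.959 over all settings. The other probe set differed by -0.12 (SE 0.13).

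Mmp9, a gelatinase with a role in synaptic plasticity, lies on chromosome 3 and had low values on both probe sets, the main one at percentile 13.6 of all probe sets. Water animals ran from 4.93 to 5.53 (median 5.23) and ethanol animals from 4.68 to 5.61 (median 5.33), with wide overlap. The difference was 0.02 for the main probe set and 0.09 for the other, both smaller than the SD within groups (0.26 and 0.21). For the main probe set it was -0.08, -0.07 and -0.02 with the myelin, meningeal and endothelial scores as covariates.

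Adamts1, a proteoglycan-cutting protease that is induced in vessels and by injury, lies on chromosome 11, and its single probe set was also under the filter. It ran from 5.99 to 8.71 in water animals (median 6.67) and from 5.95 to 7.83 in ethanol animals (median 6.54). Water animal 18 and ethanol animal 5 were the highest. The difference was -0.15 over all animals, -0.07 without these 2 and 0.06 without water animal 18 alone, against a within-group SD of 0.68. The runs disagreed in sign (-0.10, -0.66 and 0.74), and the difference was 0.24, 0.06 and 0.07 with the meningeal, myelin and endothelial scores as covariates.

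Adamts9, a protease that cuts versican and aggrecan, lies on chromosome 4. Its main probe set ran from 7.25 to 8.03 in water animals (median 7.58) and from 6.86 to 7.51 in ethanol animals (median 7.22). The groups overlapped, with 7 ethanol animals below the lowest water animal and 6 water animals above the highest ethanol animal, and the water mean exceeded 10 of 10 ethanol animals. The means were 7.19 ± 0.19 (SD, n = 10) with ethanol and 7.60 ± 0.23 (SD, n = 10) with water. The difference was -0.42 (SE 0.090), or 1.34-fold higher in water animals, with a limma adjusted p of 0.140. In the 3 runs it was -0.42, -0.45 and -0.35. Over the alternatives that kept this probe set it stayed between -0.46 and -0.32, with limma adjusted p-values of 0.0618 to 0.274. The other Adamts9 probe set lay under the filter at 5.98, differed by 0.04, and correlated with the main one at -0.09 over 20 animals and -0.48 over 18. The mean of the 2 probe sets differed by -0.19.

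**Figure D2:**
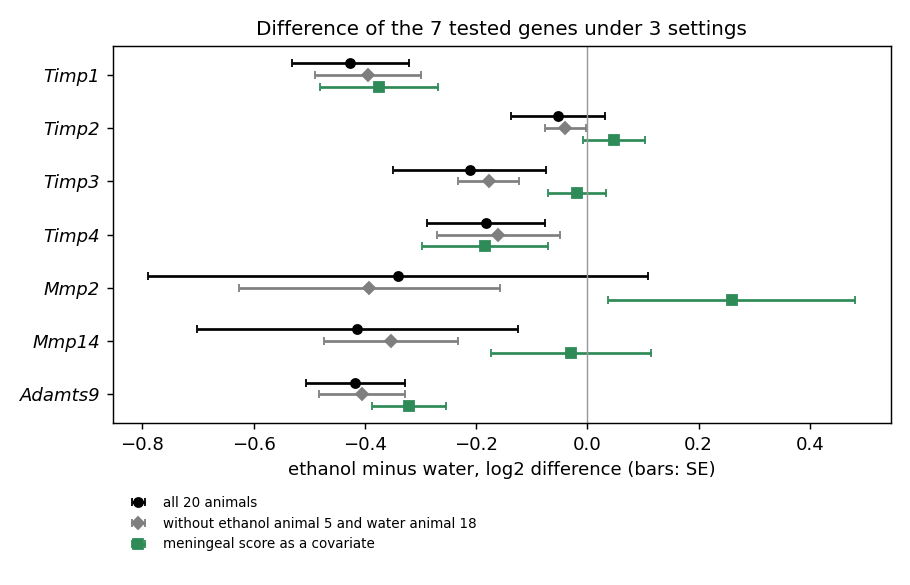
Ethanol minus water log2 difference of the 7 tested genes (horizontal axis, bars are SE) with all 20 animals, without ethanol animal 5 and water animal 18, and with the meningeal and fibroblast score as a covariate. Timp1 and Adamts9 keep differences of -0.43 to -0.32 in the 3 settings, while Timp3 and Mmp14 are at -0.02 and -0.03 and Mmp2 at 0.26 with the score.

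Upstream sequence is shown for the 2 genes with the lowest difference p, Timp1 and Adamts9. It is also shown for 2 genes that were high together in ethanol animal 5 and water animal 18, Timp3 and Adamts1. Adamts9 was highest in these animals as well. Each run is the 250 bases before the annotated start in RefSeq on GRCr8, 5' to 3' on the strand of the gene, which is the minus strand for each. The positions are chrX:3771123-3771372 for Timp1, chr4:127019877-127020126 for Adamts9, chr7:19459559-19459808 for Timp3 and chr11:38427385-38427634 for Adamts1. Capitals mark a GC box (GGGCGG, either strand) or TATAAA (either strand).
Timp1: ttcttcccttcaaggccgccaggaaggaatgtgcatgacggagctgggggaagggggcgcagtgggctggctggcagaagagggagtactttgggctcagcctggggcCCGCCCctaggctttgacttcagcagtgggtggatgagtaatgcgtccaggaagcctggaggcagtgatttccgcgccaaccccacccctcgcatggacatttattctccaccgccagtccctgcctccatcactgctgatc
Adamts9: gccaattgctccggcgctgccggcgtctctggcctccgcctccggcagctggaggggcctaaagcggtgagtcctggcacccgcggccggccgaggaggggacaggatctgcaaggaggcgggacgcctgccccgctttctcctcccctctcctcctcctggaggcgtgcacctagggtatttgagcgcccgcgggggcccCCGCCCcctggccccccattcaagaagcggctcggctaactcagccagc
Timp3: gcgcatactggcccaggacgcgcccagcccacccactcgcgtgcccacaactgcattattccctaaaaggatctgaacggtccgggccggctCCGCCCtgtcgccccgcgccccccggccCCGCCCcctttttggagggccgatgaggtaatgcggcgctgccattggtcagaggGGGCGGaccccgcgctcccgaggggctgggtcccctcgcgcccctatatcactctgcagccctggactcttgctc
Adamts1: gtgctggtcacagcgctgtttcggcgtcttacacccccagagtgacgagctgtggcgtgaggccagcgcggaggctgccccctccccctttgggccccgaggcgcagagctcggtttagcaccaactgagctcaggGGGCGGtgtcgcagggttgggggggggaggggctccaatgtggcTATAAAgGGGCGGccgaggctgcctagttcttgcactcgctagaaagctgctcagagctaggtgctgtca
Timp1 and Adamts9 each had 1 GC box match, Timp3 had 3, and Adamts1 had 2. No match overlapped another. A GC box was found in 30.5% of the 33469 promoters of the same table and length. Adamts1 alone of the 4 held TATAAA, which 12.9% of promoters hold. The AP-1 motif TGANTCA (6.34% of promoters) and the cyclic AMP response element TGACGTCA (1.59%) were searched on both strands as well and were not in these windows. The table held promoters of 6 members, those of Timp2 and Timp4 besides these.

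Between animals of the same group Timp2, Timp3, Mmp2, Mmp14, Adamts1 and Adamts9 had the highest correlations with each other, and Timp1, Timp4 and Mmp9 lower ones. The list was made with results of these animals known, so what follows describes them and nothing is read from the counts. After each group mean was subtracted, 17 of the 36 pairs of members correlated at an adjusted p under 0.05 over 20 animals (permutation of animals within groups, 100000 resamples, two-sided, adjusted over the 36 pairs), 16 positive and 1 negative. Timp1 with Timp2 was at r = 0.593, and at 0.279 over the 18 animals without ethanol animal 5 and water animal 18. An absolute r of 0.7 or more was reached by 14 pairs (38.9%), beside 2.15% of all pairs of tested probe sets.

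The calls depended on ethanol animal 5 and water animal 18. Without them, a setting chosen after seeing the data, 0 of 36 pairs passed (smallest adjusted p 0.0547, permutation test), 6 had an unadjusted p under 0.05, and rank correlation in these 18 animals also gave 0. An absolute r of 0.7 or more was then reached by 1 pair (2.78%), beside 2.35% of all pairs of tested probe sets. An absolute r of 0.5 or more was reached by 19.4% of the member pairs, beside 14% of all pairs. Without water animal 18 alone 8 pairs passed, and without ethanol animal 5 alone 14. Rank correlation over 20 animals gave 2 pairs, Timp3 with Adamts1 and Mmp9 with Adamts1.

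The inhibitor Timp3 and the protease Mmp14 correlated at r = 0.960 over 20 animals (rho 0.558) and 0.690 over 18. Timp3 and Mmp2 were at 0.932 (rho 0.618) and 0.813. Mmp2 and its activator Mmp14 were at 0.917 (rho 0.388) and 0.688, and Timp3 and Adamts1 at 0.897 (rho 0.679) and 0.645. The 18 animals still held water animal 16, the highest of them for Mmp2, Timp3 and Mmp14. Over these 18 the rho of Timp3 was 0.392 with Mmp14, 0.475 with Mmp2 and 0.558 with Adamts1. The rho of Mmp2 with Mmp14 was 0.158 over them. The pairs of Timp2 lost most of their size: 0.935 and 0.449 with Mmp14 (rho 0.509), 0.920 and 0.219 with Timp3 (rho 0.267), and 0.847 and 0.152 with Mmp2 (rho 0.139). Mmp2 and Adamts1 were at 0.826 (rho 0.630) and 0.508. With group and run means removed the r values of these 8 pairs were 0.814 to 0.972, and Timp2 with Timp3 and Timp2 with Mmp2 were no longer called (permutation adjusted p = 0.0593 and 0.0800). With the meningeal score removed Timp3 with Adamts1 was at 0.149 and Mmp2 with Adamts1 at 0.00372 (permutation adjusted p = 0.767 and 0.989). Timp2 with Mmp2 was then at 0.445 (permutation adjusted p = 0.137). The rest of the 8 pairs were still called, at 0.607 to 0.808.

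The negative pair was Mmp9 with Adamts1, at r = -0.636 (rho -0.703) over 20 animals and -0.631 over 18, so its size did not rest on these animals. With water animal 15 left out too it was -0.667 (permutation adjusted p = 0.104). With the meningeal score removed it was -0.408 (permutation adjusted p = 0.218). Both genes were under the filter. Timp1 and Adamts9, the pair with the lowest difference p, had a weak correlation within groups, at r = 0.201 over 20 animals and -0.24 over 18.

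**Figure D3:**
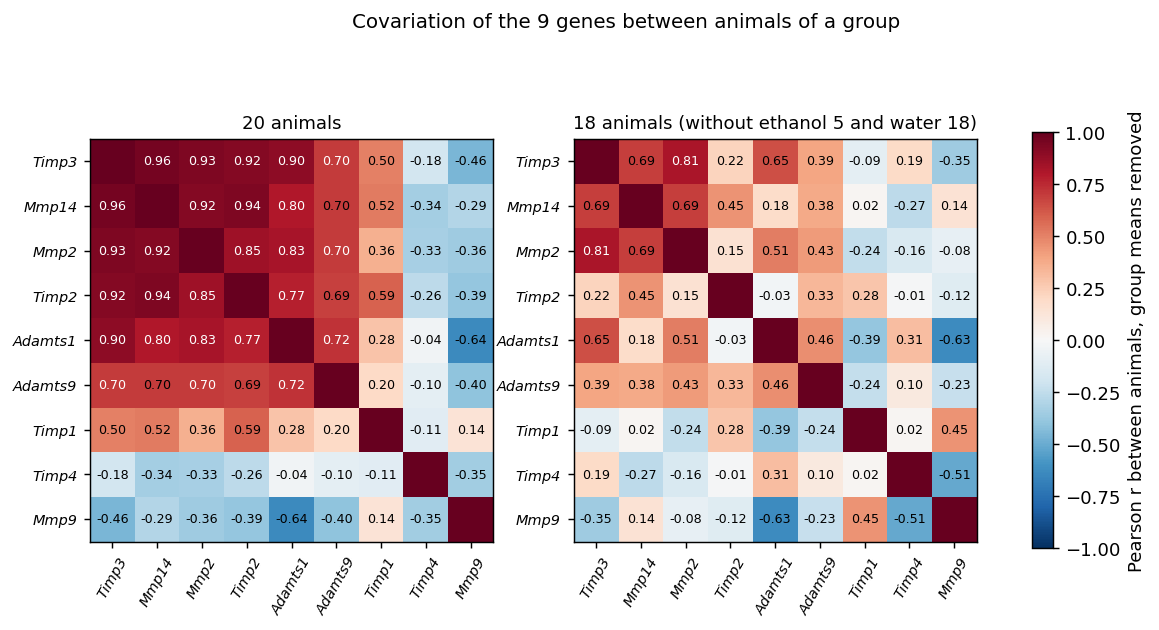
Pearson r between animals for each pair of the 9 genes, group means removed, over 20 animals (left) and over 18 without ethanol animal 5 and water animal 18 (right), on a colour scale from -1 to 1. Timp3, Mmp14, Mmp2, Timp2 and Adamts1 correlate at 0.77 to 0.96 on the left and at -0.03 to 0.81 on the right, while Timp1, Timp4 and Mmp9 have lower correlations with them.

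Marker lists of other cell types were set beside the members, each list as the mean log2 value of its tested genes in an animal. The meningeal and fibroblast score (10 of 13 genes tested, led by Igf2, Col1a2 and Dcn) ran from 7.72 to 10.11 in water and from 7.71 to 9.02 in ethanol animals. Its highest animals were water animal 18 at 10.11, water animal 16 at 9.15 and ethanol animal 5 at 9.02, the same 3 that were highest for Mmp2, Timp3 and Mmp14. All 10 genes had a lower mean with ethanol, and the score differed by -0.35. The choroid plexus and ependyma score (4 of 8 tested, led by Ttr) had the same 3 animals on top, at 11.88, 11.17 and 11.46, and differed by -1.42 with all 4 genes lower. The endothelial score was also highest in these animals (9.78, 9.53 and 9.61) but differed by -0.05, with 6 of 9 genes lower. Of the other lists the myelin score differed by -0.36 (11 of 11 lower), the astrocyte score by -0.12 (8 of 9 lower) and the neuron score by 0.11 (0 of 10 lower). The array table has no value of 0, its lowest being 3.82. In tissue samples fewer cells of a type and less RNA per cell cannot be told apart, and the part of these cells in the differences of the members was not tested beyond the covariate values given above.

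Of 81 correlations of a member with a cell type score, 23 passed over 20 animals and 16 over 18 (permutation, adjusted over the 81). The share of all tested probe sets that would pass with these scores was not computed, so nothing is read from these counts. Timp3 followed the meningeal score at r = 0.946 (rho 0.897) over 20 animals and 0.887 over 18, with permutation adjusted p-values of 0.00027 and 0.00243. Adamts1 followed it at 0.929 (rho 0.842) and 0.776, with 0.00027 and 0.00486, and Mmp2 at 0.889 (rho 0.630) and 0.775, with 0.000324 and 0.0367. Over 17 animals, with water animal 15 left out too, Mmp2 was at 0.772 (permutation adjusted p = 0.0774), and Timp3 and Adamts1 still passed. Mmp14 was at 0.888 and 0.580, Adamts9 at 0.738 and 0.496, and Timp2 at 0.822 and 0.22, each without a call over 18 animals. Mmp9 ran the other way, at -0.548 (rho -0.697; permutation adjusted p = 0.0142) and -0.477 over 18 (permutation adjusted p = 0.0760). With the endothelial score Timp3 was at 0.933 and 0.754, Mmp2 at 0.897 and 0.711, and Adamts1 at 0.89 and 0.64. Each was called over 20 animals and over 18 (permutation adjusted p = 0.0229, 0.0367 and 0.0383 over 18). Over 17 animals none of them was called (permutation adjusted p = 0.0632, 0.0816 and 0.0871). With the choroid plexus and ependyma score Mmp14 was at 0.807 and 0.665 and called over 18 animals too (permutation adjusted p = 0.0367). Mmp2 was at 0.869 and 0.727 with that score (permutation adjusted p = 0.00027 and 0.0178). Over 17 animals Mmp2 was still called with it (0.73, permutation adjusted p = 0.0385), and Mmp14 was not (0.64, permutation adjusted p = 0.0735).

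Timp3 also followed the mural score of pericytes and smooth muscle over 18 animals (r = 0.774, permutation adjusted p = 0.00621; 0.358 over 20), in which ethanol animal 5 was low. Adamts1 was at 0.649 with the mural score over 18 animals (permutation adjusted p = 0.0367) and 0.462 over 20 (0.136). Mmp9 ran against it, at -0.627 over 20 and -0.669 over 18 (permutation adjusted p = 0.0117 and 0.0229). By rank over 20 animals and with run means removed Mmp9 was not called (permutation adjusted p = 0.133 and 0.0989). Timp1 followed neither score of connective tissue nor vessel, at r = 0.331 over 20 and -0.313 over 18 animals with the meningeal one. It was higher in animals with a higher central amygdala score over 18 animals (r = 0.628, permutation adjusted p = 0.0383) but not called over 20 (0.477, 0.110). Mmp9 followed that score at 0.659 (rho 0.758; permutation adjusted p = 0.00947) and 0.683 over 18, and 0.642 (permutation adjusted p = 0.0691) with run means removed. Adamts1 ran against it, at -0.484 over 20 and -0.752 over 18 animals, with permutation adjusted p-values of 0.108 and 0.0170. Timp4 followed the myelin score at 0.607 (rho 0.503; permutation adjusted p = 0.0322) and 0.653 over 18, but was not called by rank (permutation adjusted p = 0.133), with run means removed (0.0688) or without the 3 arrays (0.0632). Adamts9 followed the astrocyte score over 18 animals (0.641, permutation adjusted p = 0.0367) but was not called over 20 (0.388). Nor was it called without the 3 arrays (permutation adjusted p = 0.0557) or by rank over 18 (0.0764).

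**Figure D4:**
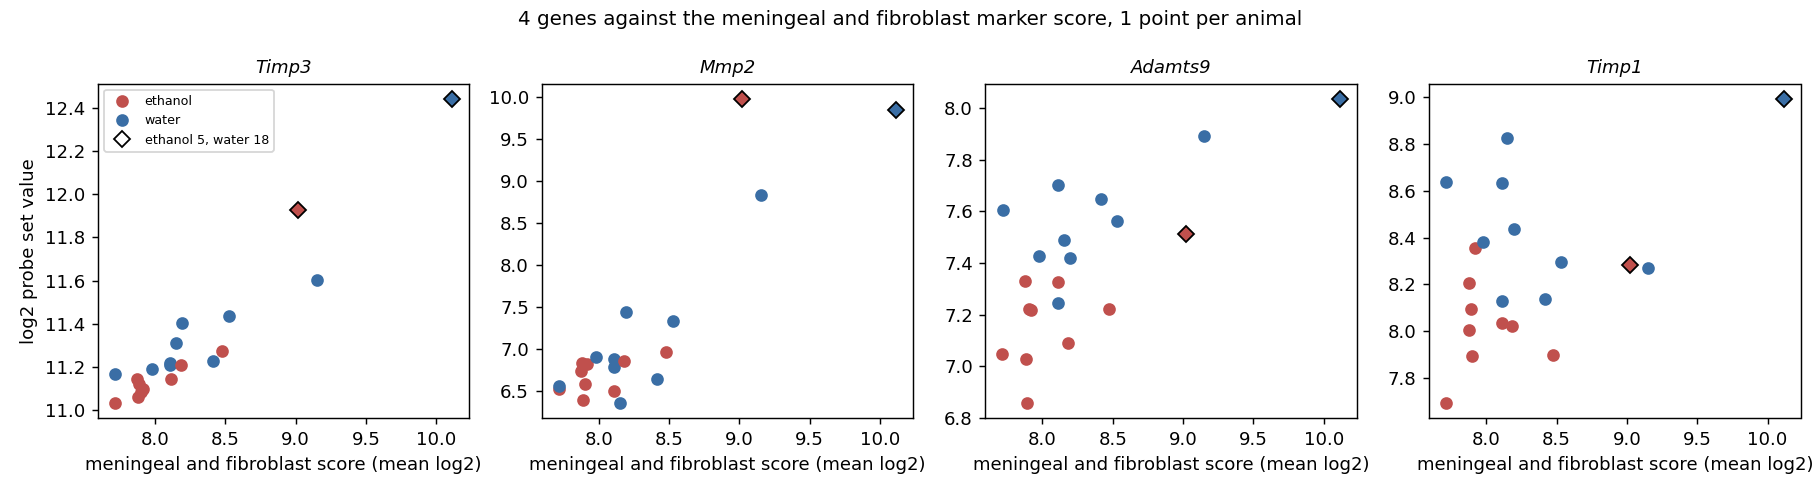
Log2 value of Timp3, Mmp2, Adamts9 and Timp1 (vertical axes, separate per gene) against the meningeal and fibroblast score (horizontal axis, mean log2 value of 10 marker genes), 1 point per animal, ethanol in red and water in blue. Timp3 climbs with the score through all animals (r = 0.946 with group means removed), Mmp2 is high in 3 animals with a score above 9, and Timp1 shows no such course (r = 0.331).

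The genes most like each member were taken as the 3 named genes with the highest r over 20 animals, group means removed, with r over the 18 animals beside it. For Timp4 they were the angiotensin precursor gene Agt (0.939 and 0.936), Ctps2 (0.923 and 0.915) and Ccdc136 (0.903 and 0.9), so this likeness did not rest on the high animals. For Mmp2 they were Nt5dc2 (0.986 and 0.949), the growth factor gene Mdk (0.979 and 0.909) and Igfbp2, an insulin-like growth factor binding protein (0.978 and 0.929). Timp3 was most like the copper transporter gene Slc31a1 (0.981 and 0.854), Sned1 (0.981 and 0.883) and the endocytic adaptor gene Dab2 (0.978 and 0.871), and Mmp14 like Slc31a1 (0.970 and 0.784), Sned1 (0.970 and 0.8) and Cgnl1 (0.966 and 0.731).

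Adamts1 was most like Vamp8 (0.955 and 0.859), Fkbp9 (0.945 and 0.820) and the lysosomal protease gene Ctsl (0.939 and 0.843). Adamts9 was most like Kdelr1 (0.886 and 0.816), Serpinb9 (0.869 and 0.777) and the lipid synthesis regulator Srebf1 (0.863 and 0.760). Mmp9 was most like the calcium channel gene Cacna1d (0.829 and 0.812), Pgam5 (0.828 and 0.811) and Arhgap44 (0.820 and 0.799). Timp1 had the lowest likeness of the 9, with Efs (0.746 and 0.607), Cmtm8 (0.743 and 0.615) and the chaperonin gene Hspe1 (0.731 and 0.635). For Timp2 the likeness to the lysozyme gene Lyz2 (0.947 and 0.4998), Slc19a1 (0.946 and 0.676) and Erlin2 (0.945 and 0.490) fell off without the high animals.

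Other genes of matrix proteolysis were taken from 6 lists of 76 genes, written with earlier results of these data known, of which 64 were on the array and 35 passed the filter. Of these 35, 0 passed limma's adjusted threshold in either direction, 10 had an unadjusted p under 0.05, 25 had a lower mean with ethanol, and the median difference was -0.07. Over all tested probe sets 0.0215% were called, 12.8% had an unadjusted p under 0.05 and 42.2% a lower mean, and nothing is read from the counts of these lists. Among the other matrix metalloproteinases 4 of 15 were tested, with 1 lower mean and 3 higher. Mmp15, a membrane-type protease, was at 9.26 ± 0.070 in ethanol and 9.39 ± 0.12 in water animals (difference -0.13, SE 0.045; limma adjusted p = 0.311), the water mean exceeding 10 of 10 ethanol animals. Mmp24, a membrane-type protease of neurons, differed by 0.10 (SE 0.054; limma adjusted p = 0.439).

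Of the other ADAMTS genes 2 of 17 were tested, and both had the lower mean. Adamts4, an aggrecanase, ran from 9.61 to 10.87 in water and from 8.91 to 10.51 in ethanol animals (difference -0.52, SE 0.19; limma adjusted p = 0.314). Adamts5, the other main aggrecanase, differed by -0.16 (SE 0.069; limma adjusted p = 0.342). Of the ADAM and meprin genes 4 of 11 were tested, 2 in each direction, with the sheddases Adam17 at -0.15 (SE 0.083) and Adam10 at 0.27 (SE 0.16).

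Of the other protease inhibitors 7 of 8 were tested, 4 with a lower mean. The complement inhibitor gene Serping1 ran from 7.49 to 9.36 in water and from 7.23 to 8.43 in ethanol animals (difference -0.63, SE 0.20; limma adjusted p = 0.284), and the broad protease trap A2m differed by -0.90 (SE 0.35; limma adjusted p = 0.317). Both were highest in ethanol animal 5 and water animal 18 of their groups. In the plasminogen list 3 of 7 were tested and all 3 had a lower mean. Plat, the tissue plasminogen activator, ran from 9.89 to 10.74 in water and from 9.59 to 10.39 in ethanol animals (difference -0.40, SE 0.11; limma adjusted p = 0.239), and the oligodendrocyte-enriched protease gene Klk6 differed by -0.61 (SE 0.28). Of the matrix proteins 15 of 18 were tested, 13 with a lower mean and a median of -0.07. The laminin chain gene Lamc1 differed by -0.14 (SE 0.046; limma adjusted p = 0.284) with a water mean above 10 of 10 ethanol animals, and the tenascin gene Tnc by -0.31 (SE 0.13; limma adjusted p = 0.347).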

How the data were processed

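Per the labels' protocols, total RNA (Trizol, then an RNeasy kit) was turned into biotin-labelled cRNA with a 3' IVT kit. RMA made the values, per the submitters' processing notes, with no version stated there. What the authors deposited is 1 log2 summary per probe set and animal, a base inferred from the range of 3.82 to 16.16 (0 missing). Gene names came from the platform annotation, and chromosomes and promoters from RefSeq on GRCr8.

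The group difference came from limma 3.58.1 (lmFit, eBayes) under R 4.3.3. Correlations used numpy 2.4.6 and pandas 2.3.3 in Python 3.11.15, with figures from matplotlib 3.10.9. The scripts were tested on simulated data. Replicates are separate animals, and the labels pair none. The number of arrays limits precision, with a median SE of a log2 difference of 0.0624.

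The members, the lists and the tests were chosen with earlier results of these data known. Named were all members, up to 8 called pairs with the largest absolute r and the most negative pair, up to 2 genes per pathway list with the smallest p, the 3 genes most like each member, and the 3 markers with the highest mean. The other measured markers of the nucleus were named as well. Pairs of a member and a cell type score were chosen for the text after their values were seen. Alternatives were filters (none, 60th percentile), normalization (median centring, cyclic loess), array quality weights, trend and robust eBayes, the run as a block, myelin, meningeal and endothelial scores as covariates, all probe sets of a gene, and leaving out animals.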

Additional observations from a re-analysis of the deposited data

Results flagged for a closer look

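Among the 18 groups of 10 animals (9 genes, 2 groups), 8 held a highest animal whose gap to the next, divided by the range of the group, was above the critical value of Dixon's test (0.466). The nominal rate of this test is about 1 group in 20, and it holds for independent groups. The flagged genes correlated with each other, so these groups were not independent. The share of all tested probe sets flagged on these arrays was not computed, so nothing is read from the count. All 8 flags fell on ethanol animal 5 or water animal 18, whose arrays were among those with the lowest mean correlation. In ethanol animal 5 these were Timp2 at 12.23 (next animal 11.78), Timp3 at 11.93 (next 11.27), Mmp2 at 9.98 (next 6.96) and Mmp14 at 10.59 (next 9.10). In water animal 18 they were Timp2 at 12.41 (next 11.86), Timp3 at 12.44 (next 11.60), Mmp14 at 11.55 (next 9.93) and Adamts1 at 8.71 (next 7.22). For Timp1, Timp4, Mmp9 and Adamts9 no animal stood out in either group by this measure.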

How the results depend on the processing

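No member passed limma's adjusted threshold under any setting. Over all probe sets limma called 4, and 2 with the 60th percentile filter, 23 with array quality weights, 0 with the myelin score (2359 at an unadjusted p under 0.05), 1 with the meningeal score, and 1 to 8 with single animals left out. The count of members with a lower mean, 8, was 7 to 9 with single animals left out and 6 with the meningeal or the endothelial score. The sign reversed for Timp2 (-0.106 to 0.0134 with single animals left out, -0.106 without ethanol animal 5) with the meningeal score (0.0482), the endothelial score (0.0102), without water animal 18 (0.0134) and as the mean of its probe sets (0.0886), and for Mmp2 with the meningeal (0.26) and endothelial (0.0261) scores. The untested Adamts1 turned with the 3 scores (0.0591 to 0.236) and without water animal 18 (0.0575). Mmp9 turned with the 3 scores (-0.0771 to -0.0181). It also turned with ethanol animal 2, 4 or 7 or water animal 17 or 18 left out singly (-0.0196 to -0.00672). The 17 called pairs of members became 2 by rank correlation, 1 in ethanol and 13 in water animals, 20 with the myelin score removed, 0 without the 3 arrays that correlated least, 0 without ethanol animal 5 and water animal 18 (0 by rank too), 8 with run means removed, 10 with the meningeal score removed, 2 without the 2 animals farthest from the median of x, and 8 to 19 with single animals left out. The 23 calls with cell type scores became 11 by rank, 5 in ethanol and 13 in water animals, 8 without the 3 arrays, 12 with run means removed, 6 by rank without ethanol animal 5 and water animal 18, and 19 to 25 with single animals left out. The rank correlation of Timp2 without these animals was -0.00833 with Timp3 and -0.183 with Mmp2. The alternatives that use fewer animals have less power, and the cause of the other changes was not tested. No paired analysis was possible because no animal number occurs in both groups. Low signal limits Mmp9, Adamts1, Mmp2 and Adamts9, which lie under or near the filter. The main probe set of Adamts9 had a mean of 7.39 (percentile 43.1). With the 60th percentile filter Timp1 (percentile 54.4), Mmp2 and Adamts9 were not tested.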

Other observations

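In the reference annotation (GRCr8) 3 of the 4 Timp genes lie inside the span of a synapsin gene, which encodes a protein of synaptic vesicles: Timp1 inside Syn1, Timp3 inside Syn3 and Timp4 inside Syn2. Timp1 and Timp4 are on the strand opposite to their host. On 1 probe set each (of 2 for Syn1, 3 for Syn2 and 1 for Syn3), the hosts had the opposite sign to their inhibitor in ethanol against water. Over all tested probe sets 42.2% had a lower mean with ethanol, and the neuron score differed by 0.11, with 10 of 10 genes higher. The part of neurons in this was not tested. Syn1 was at 11.1 ± 0.15 (SD, n = 10) with ethanol and 10.93 ± 0.22 (SD, n = 10) with water, a difference of 0.17 (SE 0.079; limma adjusted p = 0.387), beside -0.43 for Timp1. Syn2 differed by 0.13 (SE 0.13; limma adjusted p = 0.660) beside -0.18 for Timp4, and Syn3, under the filter, by 0.20 beside -0.21 for Timp3. Between animals of a group the r of inhibitor and host was -0.433 for Timp1 and Syn1, -0.353 for Timp3 and Syn3 and -0.168 for Timp4 and Syn2 over 20 animals, and -0.138, -0.129 and -0.363 without ethanol animal 5 and water animal 18. None of these differences passed the test, and the pairs were looked at after the values of the inhibitors were seen.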
